A study of Saccharomyces cerevisiae Vin13 with 18 samples.

Results

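The 9 genes described here make up the enzymes by which Saccharomyces cerevisiae removes superoxide and hydrogen peroxide outside the peroxiredoxin system, with 1 helper. They are the catalases CTT1 and CTA1, the superoxide dismutases SOD1 and SOD2, the copper chaperone CCS1, the cytochrome c peroxidase CCP1, and the glutathione peroxidase family GPX1, GPX2 and HYR1. They were chosen by gene symbol from the 5449 S. cerevisiae genes that the array measured. Each was covered by 1 probe set, and all 9 lay above background on all 18 arrays. VIN13, a commercial wine yeast, fermented Chardonnay must at 20 °C from an inoculum at an OD600 of 0.1. The vials were microaerobic and held 80 ml, and the commercial tanks held 300 L. Cells were collected on days 2, 5 and 10, which the labels place in the exponential, early stationary and late stationary phases. With 3 biological replicates of each scale and day there were 6 groups and 18 arrays, and every group had the same strain and must. Nothing in the labels says whether a vessel was sampled on more than 1 day.

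Superoxide leaks from respiration and other redox reactions, and the dismutases turn it into hydrogen peroxide and oxygen. Catalases, peroxiredoxins and peroxidases then reduce the peroxide, the catalases without and the peroxidases with a supply of electrons. Catalases and CCP1 carry heme, so their formation depends on heme, which in turn needs oxygen for its synthesis. CTT1 is a long-known target of the general stress factors Msn2 and Msn4, CTA1 is repressed by glucose and induced through Adr1 and the oleate factors Oaf1 and Pip2, and GPX2 is induced through the peroxide-responsive factor Yap1.

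The probe sets read between 5352 and 5385 S. cerevisiae genes per array above a background of 4.48 on the log2 scale. The array table names no batch of any kind, so none could be tested. Replicate 2 of the day 10 tanks stood apart, with a mean correlation of 0.977 to its group against 0.984 and 0.987 for the other two, and results that turn on it are given without it. Control probe sets that set the 3′ end of 8 yeast transcripts against the 5′ end gave mean log2 differences of 1.00, 1.46 and 1.78 in vials on days 2, 5 and 10. The tank means were 0.83, 1.15 and 1.36, so this measure moved with day and with scale, and its part in the results was not tested. Signals below are log2 values of the deposited intensities, and differences are called where limma gave a Benjamini-Hochberg adjusted p under 0.05 over all 5449 genes. Signals of different genes come from different probes and are not set against each other. These are bulk samples, in which fewer cells that hold a transcript and less of it per cell cannot be told apart.

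On day 2 the scales differed in 8 of the 9 genes, in both directions. CCP1 and HYR1 were higher in tanks, which makes 2 of 9 against a background of 38.2% of all genes, and CTT1, CTA1, SOD1, SOD2, GPX1 and GPX2 were lower, 6 of 9 against 39.1%. By day 5 only CCP1 and HYR1 were called higher (background 33.1%) and only CCS1 lower (28.8%) among the 9. On day 10 CCP1, HYR1, GPX1 and GPX2 were called higher (background 32.3%), and CCS1 lower (26.4%). The median log2 difference of the 9 genes was -0.40, 0.09 and 0.36 on days 2, 5 and 10, against -0.01, 0.02 and 0.03 over all genes. SOD1, GPX1, GPX2 and HYR1 have coding sequences under 600 nt, and the medians over all genes that short were -0.40, -0.31 and -0.25. How far coding length enters the median of the 9 was not tested. With so many genes called in every scale comparison, the counts alone do not set these 9 apart, and the values of each gene follow.

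**Figure D1:**
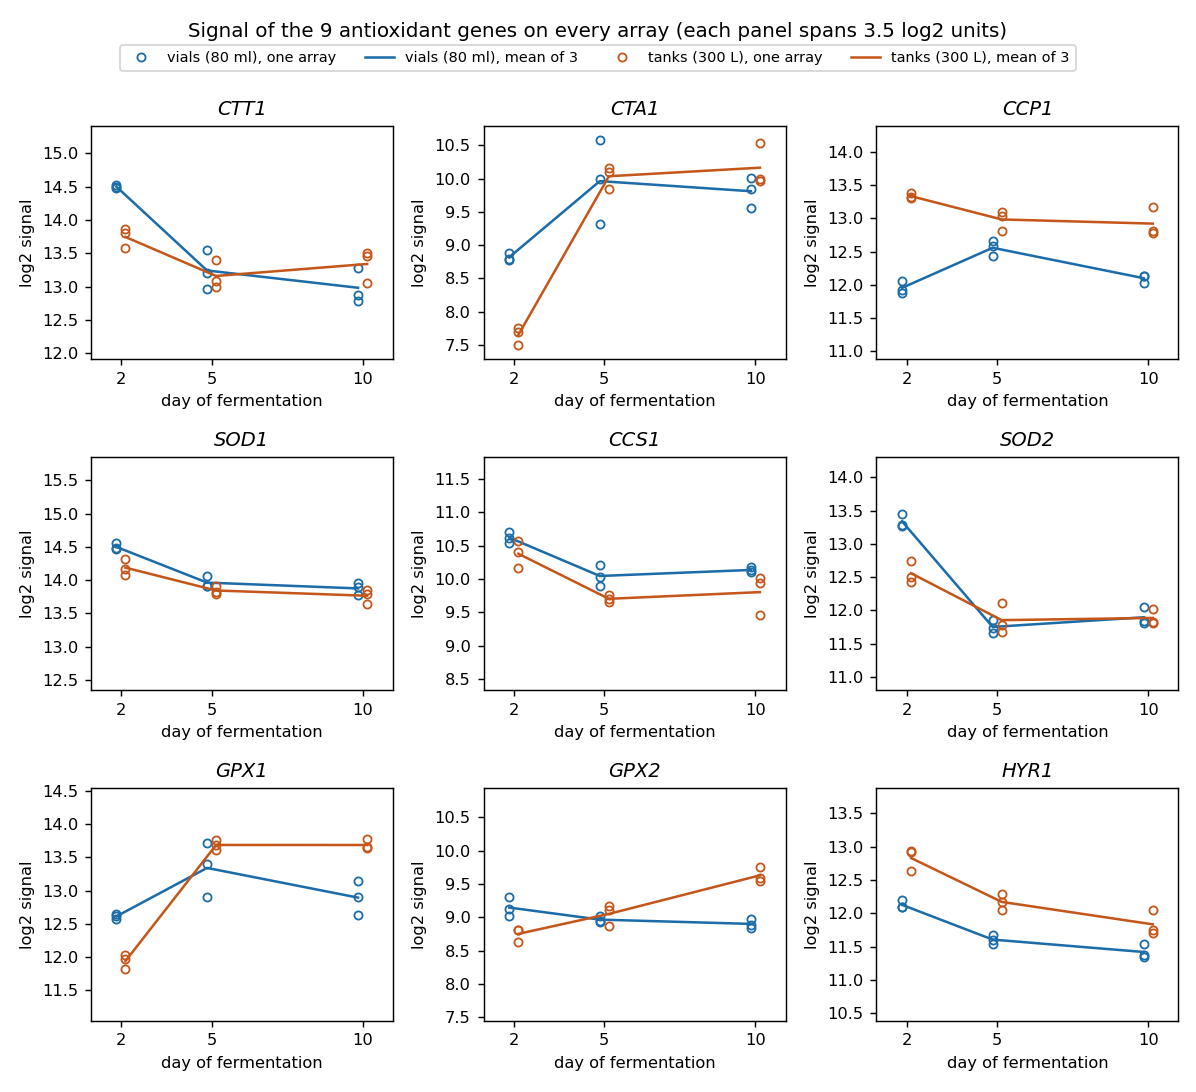
Log2 signal (vertical axis) of each gene on days 2, 5 and 10 (horizontal axis), with open circles for single arrays and lines through the means of 3, vials in blue and tanks in orange. CCP1 and HYR1 lie higher in tanks on all 3 days, while CTA1 and GPX1 start lowest in day 2 tanks and lie above that level in the 5 other groups.

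CTT1 encodes catalase T, the cytosolic catalase of the stress response. On day 2 its log2 signal was 14.49, 14.53 and 14.48 in the 3 vials and 13.80, 13.86 and 13.57 in the 3 tanks. Day 5 gave 12.96, 13.56 and 13.21 in vials against 13.09, 13.40 and 12.99 in tanks, and day 10 gave 13.28, 12.88 and 12.79 against 13.50, 13.46 and 13.06. The day 2 vials were thus highest, the day 2 tanks next, and neither overlapped any later array, while the 4 later groups overlapped their neighbours in the order of means.

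The day 2 difference was -0.76 (SE 0.17, adjusted p = 0.000526), or 1.69-fold less in tanks. CTT1 then fell by 1.26 from day 2 to day 5 in vials (adjusted p = 4.25e-06) and by 0.59 in tanks (adjusted p = 0.00441). The fall in vials was larger than that of all but 11.9% of genes, counting changes in either direction. Over the whole course the fall was 1.52 in vials and 0.41 in tanks, and the difference between these changes was itself called at 1.11 (SE 0.23, adjusted p = 0.000689). On day 5 the scales differed by -0.08 (95% confidence interval -0.43 to 0.27) and on day 10 by 0.36 (0.01 to 0.71, adjusted p = 0.0734). The day 10 value for CTT1 passed the threshold without tank replicate 3 (0.50, adjusted p = 0.0221), without vial replicate 1 (0.51, adjusted p = 0.0216) and with the replicate number as a block (adjusted p = 0.0482). The whole-course fall of CTT1 in tanks lost its call without day 2 tank replicates 1 or 2 (adjusted p = 0.0843 and 0.104) and without day 10 tank replicate 3 (-0.26, adjusted p = 0.175).

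CTA1 encodes catalase A, the enzyme of peroxisomes and mitochondria, and its signal was higher, not lower, after day 2. The day 2 signal was 8.79, 8.78 and 8.88 in vials and 7.50, 7.76 and 7.69 in tanks. In vials it reached 9.32, 10.57 and 9.99 on day 5 and 10.02, 9.85 and 9.56 on day 10. In tanks the values were 10.10, 10.16 and 9.84, and then 9.99, 10.54 and 9.96. Both day 2 groups lay below every later array and did not overlap each other, tanks being the lower, and all later groups overlapped their neighbours.

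The day 2 difference was -1.17 (SE 0.23, adjusted p = 0.000192), a 2.25-fold lower signal in tanks. From day 2 to day 5 CTA1 rose by 1.14 in vials (2.21-fold, adjusted p = 0.000311) and by 2.39 in tanks (5.22-fold, adjusted p = 7.96e-08). Only 1.96% of all genes changed more than CTA1 in tanks over that step. Its rise was larger in tanks by 1.24 (SE 0.32, adjusted p = 0.00392). On days 5 and 10 the scales differed by 0.07 (95% confidence interval -0.41 to 0.56) and 0.35 (-0.13 to 0.84), neither of them called. The spread was wide in day 5 vials, with an SD of 0.63 for CTA1 against a median SD of 0.14 over all genes. In those 3 vials replicate 2 was highest and replicate 1 lowest for CTA1, CTT1, GPX1, SOD1 and HYR1. The reverse held for CCS1 and GPX2, and SOD2 and CCP1 had other orders.

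SOD1 is the copper and zinc superoxide dismutase of the cytosol and the space between the mitochondrial membranes. Its signal was 14.46, 14.55 and 14.48 in day 2 vials and 14.17, 14.32 and 14.08 in day 2 tanks, the highest and second highest groups. On day 5 vials gave 13.91, 14.07 and 13.92 and tanks 13.83, 13.91 and 13.79. Day 10 vials ran from 13.77 to 13.96 and day 10 tanks from 13.65 to 13.86, so the 4 later groups overlapped their neighbours in the order of means. SOD1 had the narrowest course of the 9: its group means spanned 0.73, less than in all but 13.2% of genes. It lay near the top of the scale, with intensities up to 24002 where the highest value in the table was 39396. The same holds for CTT1 in day 2 vials, with intensities from 22880 to 23608.

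SOD1 fell by 0.54 in vials (SE 0.09, adjusted p = 4.73e-05) and by 0.34 in tanks (SE 0.09, adjusted p = 0.00223) from day 2 to day 5, and the 2 changes did not differ beyond the test (0.19, adjusted p = 0.194). On day 2 SOD1 was lower in tanks by 0.31 (adjusted p = 0.00418). Its coding sequence is 465 nt long, and the 899 genes under 600 nt had a median difference of -0.40 on day 2, against 0.09 for the 3685 genes of 900 nt or more. With a smooth trend on coding length removed the day 2 value of SOD1 was 0.19 (adjusted p = 0.0896), on the other side of 0. On days 5 and 10 the differences of -0.12 and -0.11 had intervals of -0.31 to 0.07 and -0.30 to 0.08. The day 5 value of SOD1 was called under a repeated quantile normalization (-0.25, adjusted p = 0.019), and the day 10 value with array weights (-0.21, adjusted p = 0.00998).

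CCS1 encodes the chaperone that loads copper into Sod1. Day 2 vials gave 10.62, 10.71 and 10.54 and day 2 tanks 10.41, 10.17 and 10.56, with an overlap. Vials then gave 10.20, 9.90 and 10.03 on day 5 and 10.18, 10.13 and 10.10 on day 10. The tank values of 9.66, 9.69 and 9.76 on day 5 and 9.94, 9.45 and 10.02 on day 10 lay below every vial value of the same day.

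CCS1 fell by 0.58 in vials (adjusted p = 0.00101) and by 0.68 in tanks (adjusted p = 0.00021) from day 2 to day 5. It was the 1 gene of the 9 that was called lower in tanks on days 5 and 10, at -0.34 (SE 0.13, adjusted p = 0.0335) and -0.33 (SE 0.13, adjusted p = 0.0401). Both calls were thin. The day 5 call of CCS1 was lost without tank replicates 1 or 2 (adjusted p = 0.0849 and 0.0734) and without vial replicates 1 or 3 (adjusted p = 0.136 and 0.0601). On day 10 it was lost without tank replicate 2, where the value was -0.16 (adjusted p = 0.256), and without any 1 of the 3 vials (adjusted p = 0.0966, 0.0803 and 0.062). Array weights gave -0.15 on day 10 (adjusted p = 0.129), and a fit of the 2 groups alone also lost that call (adjusted p = 0.116). With the length trend removed the day 5 value of CCS1 was -0.26 (adjusted p = 0.0745). On day 2 CCS1 differed by -0.24 (95% confidence interval -0.52 to 0.04), which was called without day 2 tank replicate 3 (-0.33, adjusted p = 0.0456) or day 10 tank replicate 2 (adjusted p = 0.0378), and with array weights (-0.30, adjusted p = 0.00605).

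SOD2 is the manganese dismutase of the mitochondrial matrix. Its signal was 13.29, 13.45 and 13.27 in day 2 vials and 12.75, 12.51 and 12.42 in day 2 tanks. On day 5 it was 11.74, 11.86 and 11.66 in vials and 11.68, 12.11 and 11.78 in tanks. Day 10 gave 12.05, 11.81 and 11.84 in vials and 11.82, 12.03 and 11.81 in tanks. As with CTT1, the day 2 vials were highest, the day 2 tanks stood between, and the 4 later groups overlapped.

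SOD2 was lower in tanks on day 2 by 0.78 (SE 0.12, 1.72-fold, adjusted p = 1.67e-05). It fell by 1.59 in vials from day 2 to day 5 (3.00-fold, adjusted p = 8.15e-09), more than all but 5.73% of genes changed in that step, and by 0.70 in tanks (adjusted p = 5.5e-05). The changes differed between the scales by 0.88 (SE 0.17, adjusted p = 0.000367). No scale difference of SOD2 was called on day 5 (0.10, 95% confidence interval -0.15 to 0.36) or day 10 (-0.01, -0.26 to 0.24).

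CCP1 encodes cytochrome c peroxidase of the mitochondrial intermembrane space, which reduces peroxide with electrons from cytochrome c. Its day 2 signal was 11.88, 11.93 and 12.06 in vials and 13.38, 13.30 and 13.31 in tanks, the lowest and the highest of the 6 groups. Day 5 gave 12.44, 12.58 and 12.65 in vials and 13.04, 13.10 and 12.81 in tanks, and day 10 gave 12.13, 12.03 and 12.14 against 12.80, 13.17 and 12.78. Tanks and vials did not overlap on any day.

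CCP1 was higher in tanks by 1.38 on day 2 (SE 0.11, 2.60-fold, adjusted p = 9.06e-09), by 0.43 on day 5 (adjusted p = 0.00272) and by 0.82 on day 10 (adjusted p = 8.6e-06). The 2 scales moved in opposite directions from day 2 to day 5. CCP1 rose by 0.60 in vials (adjusted p = 0.000109) and fell by 0.35 in tanks (adjusted p = 0.0079), a difference of -0.95 (SE 0.15, adjusted p = 7.09e-05). The fall in tanks narrowly lost its call for CCP1 without day 5 tank replicate 3 (-0.26, adjusted p = 0.0515) and with the length trend removed (-0.20, adjusted p = 0.095). From day 5 to day 10 CCP1 fell by 0.46 in vials (adjusted p = 0.00461) and differed by -0.06 in tanks (95% confidence interval -0.29 to 0.17).

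The gene of its main electron donor had a different order. CYC1, the main cytochrome c, had mean log2 signals of 11.53, 10.41 and 13.25 in vials and 5.78, 7.02 and 10.87 in tanks on days 2, 5 and 10. The day 2 tank mean of CYC1 was not far above the background of 4.48. CYB2, a lactate dehydrogenase that also passes electrons to cytochrome c, differed by -5.98, -3.21 and -1.63 between the scales on those days, and CYC1 by -5.75, -3.39 and -2.38. Both were called lower in tanks each day, where CCP1 was called higher. PCP1, the rhomboid protease that matures the Ccp1 protein, was higher in tanks by 1.29 on day 2 and 0.82 on day 5. Its day 10 means were 9.53 in vials and 9.68 in tanks. YTA12, another of the listed processing proteases, had day 2 means of 11.57 in vials and 10.27 in tanks. It was higher in tanks by 0.49 on day 5 and 0.44 on day 10. Of the 7 cytochrome c partners and processing proteases, 1 was higher and 4 lower in tanks on day 2 (38.2% and 39.1% of all genes), and 3 were higher and 3 lower on each of days 5 and 10 (33.1% and 28.8%, then 32.3% and 26.4%, of all genes).

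The glutathione peroxidase family has 3 members in yeast that act on lipid and hydrogen peroxides and take their electrons largely from thioredoxin or glutathione. HYR1, also known as GPX3, serves as the peroxide sensor that oxidises and activates Yap1. GPX1 is known to respond to glucose starvation. The coding sequences are 504 nt for GPX1, 489 nt for GPX2 and 492 nt for HYR1, so each falls in the short class whose median scale difference was -0.40, -0.31 and -0.25 on days 2, 5 and 10.

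GPX1 gave 12.62, 12.57 and 12.64 in day 2 vials and 11.98, 12.03 and 11.81 in day 2 tanks. Day 5 gave 12.90, 13.72 and 13.40 in vials and 13.61, 13.75 and 13.69 in tanks, and day 10 gave 13.15, 12.90 and 12.63 against 13.65, 13.77 and 13.63. Tanks were thus lowest on day 2 and, by the means, highest on days 5 and 10, with no overlap on days 2 and 10.

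The scale difference of GPX1 was -0.67 on day 2 (SE 0.16, adjusted p = 0.00104), 0.34 on day 5 (adjusted p = 0.0692) and 0.79 on day 10 (SE 0.16, adjusted p = 0.000489). With the length trend removed the day 2 value of GPX1 was -0.19 (adjusted p = 0.301) and the day 5 value 0.61 (adjusted p = 0.00457). The day 5 value was also called without vial replicate 2 (0.53, adjusted p = 0.00653). GPX1 rose by 0.73 in vials from day 2 to day 5 (adjusted p = 0.00066) and by 1.74 in tanks (3.35-fold, adjusted p = 4.17e-08). In tanks only 7.18% of genes changed more in that step. The rise was larger in tanks by 1.02 (SE 0.22, adjusted p = 0.00116), and over the whole course by 1.46 (SE 0.22, adjusted p = 4.13e-05).

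From day 5 to day 10 GPX1 fell by 0.45 in vials (adjusted p = 0.0422), with overlapping groups, and differed by -0.000716 in tanks (95% confidence interval -0.34 to 0.34). That fall of GPX1 lost its call without any 1 of 9 arrays, reaching -0.26 (adjusted p = 0.235) without day 5 vial replicate 2 and -0.31 (adjusted p = 0.178) without day 10 vial replicate 3. The other 7 arrays were day 2 vial replicates 1, 2 and 3, day 2 tank replicate 1, day 5 tank replicate 2, day 5 vial replicate 3 and day 10 vial replicate 2. The GPX1 call was also lost under the repeated quantile normalization (adjusted p = 0.0669), centring (adjusted p = 0.055), a fit of those groups alone (adjusted p = 0.124) and removal of the length trend (adjusted p = 0.0611).

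GPX2 gave 9.30, 9.01 and 9.12 in day 2 vials and 8.80, 8.81 and 8.63 in day 2 tanks. On day 5 the values were 9.02, 8.93 and 8.94 in vials and 9.10, 8.87 and 9.17 in tanks, and on day 10 they were 8.88, 8.98 and 8.84 against 9.76, 9.55 and 9.59. The day 10 tanks alone stood above all other arrays, and the day 2 tanks alone below them all.

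On day 10 GPX2 was higher in tanks by 0.73 (SE 0.10, 1.66-fold, adjusted p = 1.29e-05). It was the only 1 of the 9 genes that was called higher on day 10 than on day 5 in tanks, by 0.58 (adjusted p = 0.000325), and the only 1 whose change in that step was called different between the scales (0.64, SE 0.14, adjusted p = 0.0137). In tanks GPX2 had risen by 0.30 from day 2 to day 5 (adjusted p = 0.0127), a call lost without day 2 tank replicate 3 (0.24, adjusted p = 0.0605) or day 5 tank replicate 3 (0.24, adjusted p = 0.0664), or with array weights (0.22, adjusted p = 0.0877). In vials it differed by -0.18 (95% confidence interval -0.39 to 0.03) over the first step, called with array weights (-0.28, adjusted p = 0.00302), and fell by 0.25 over the whole course (adjusted p = 0.0358). This last call of GPX2 was lost without vial replicates 1 or 3 of day 2 (-0.17 and -0.26) or vial replicates 1 or 3 of day 10 (-0.24 and -0.22), and the value was 0.04 under a repeated quantile normalization, on the other side of 0. The day 2 scale difference of GPX2, -0.40 (adjusted p = 0.00176), was -0.13 (adjusted p = 0.232) under that normalization and 0.09 (adjusted p = 0.374) with the length trend removed. On day 5 the scale difference of GPX2 was 0.09 (adjusted p = 0.465), and 0.36 (adjusted p = 0.00384) with the length trend removed.

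HYR1 gave 12.09, 12.20 and 12.09 in day 2 vials and 12.92, 12.93 and 12.64 in day 2 tanks. Day 5 gave 11.55, 11.67 and 11.60 in vials and 12.16, 12.30 and 12.05 in tanks, and day 10 gave 11.54, 11.34 and 11.38 against 11.75, 12.05 and 11.71. Tanks lay above vials on each day without overlap, and at each scale the mean was lower on each later day.

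HYR1 was higher in tanks by 0.70 on day 2 (SE 0.11, adjusted p = 1.51e-05), by 0.57 on day 5 (adjusted p = 0.000265) and by 0.42 on day 10 (adjusted p = 0.00352), the opposite sign from the median of short genes. From day 2 to day 5 HYR1 fell by 0.52 in vials (adjusted p = 0.000396) and by 0.66 in tanks (adjusted p = 3.37e-05), with no called difference between the 2 (-0.14, adjusted p = 0.45). From day 5 to day 10 it fell further by 0.34 in tanks (adjusted p = 0.0207) and differed by -0.19 in vials (95% confidence interval -0.41 to 0.04). The late tank fall of HYR1 lost its call without day 5 tank replicates 1 or 2 (adjusted p = 0.0514 and 0.0924) and without day 10 tank replicates 1 or 3 (adjusted p = 0.083 and 0.0943), and when only those 2 groups were fitted (adjusted p = 0.1). Over the whole course HYR1 fell by 0.71 in vials and by 1.00 in tanks, and the difference of -0.29 (adjusted p = 0.111) was called without day 10 tank replicate 2 (-0.39, adjusted p = 0.0221) or day 2 tank replicate 3 (-0.38, adjusted p = 0.0392). It was also called for HYR1 with array weights (-0.42, adjusted p = 0.00199) and with the length trend removed (-0.60, adjusted p = 0.00988).

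**Figure D2:**
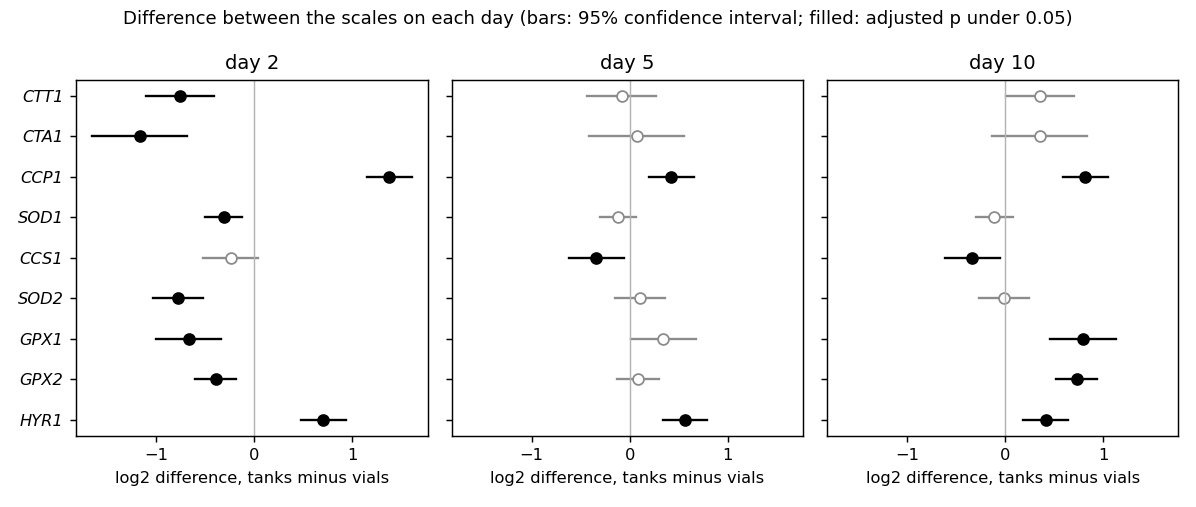
Log2 difference, tanks minus vials (horizontal axis), of each gene on days 2, 5 and 10, with bars for the 95% confidence interval and filled points for adjusted p under 0.05. CCP1 ranges from 0.43 to 1.38 and HYR1 from 0.42 to 0.70, both called each day, and GPX1 and GPX2 lie below 0 on day 2 and above 0 on day 10.

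Most of the movement with time lay between days 2 and 5. In vials CTA1, CCP1 and GPX1 rose in that step (3 of 9, background 26.5%) and CTT1, SOD1, CCS1, SOD2 and HYR1 fell (5 of 9, background 41.1%). In tanks CTA1, GPX1 and GPX2 rose (background 34.2%) and the 6 other genes fell (background 39.1%). After day 5 only CCP1 and GPX1 fell in vials (background 19.5%), and none rose (background 11.3%, and none at an unadjusted p under 0.05). Array weights gave 5 falls in that step in vials, but called 3019 of all 5449 genes in either direction, against 1674 in the main fit. In tanks GPX2 rose (background 15.3%) and HYR1 fell (background 23.6%) in that step. Array weights gave 2 rises and 3 falls there, but called 3257 of all 5449 genes in either direction, against 2123 in the main fit.

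Over the whole course CTA1 rose in vials (background 27.1%) and CTT1, SOD1, CCS1, SOD2, GPX2 and HYR1 fell (background 46.3%). In tanks CTA1, GPX1 and GPX2 rose over those days (background 35.5%) and the 6 others fell (background 43.3%). CTA1 ended 5.71-fold and GPX1 3.35-fold above day 2 in tanks, against 1.99-fold and 1.22-fold in vials, the last not called (0.28, 95% confidence interval -0.05 to 0.62). With the length trend removed, the whole-course calls of CTT1 and CCP1 in tanks were lost (adjusted p = 0.318 and 0.171), as were those of CCS1 and GPX2 in vials (adjusted p = 0.166 and 0.669). The CTT1 call was also lost under the repeated quantile normalization (adjusted p = 0.0525), and that of GPX2 under centring (adjusted p = 0.242). Centring and array weights added CCP1 (adjusted p = 0.0479 and 0.0417) and GPX1 (adjusted p = 0.0314 and 0.0188) in vials. Removing the length trend added both as well, CCP1 at 0.41 (adjusted p = 0.00232) and GPX1 at 0.49 (adjusted p = 0.0141). For GPX1 that vial value was called without day 10 vial replicate 3 (0.41, adjusted p = 0.0376) or day 5 vial replicate 1 (adjusted p = 0.0426).

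**Figure D3:**
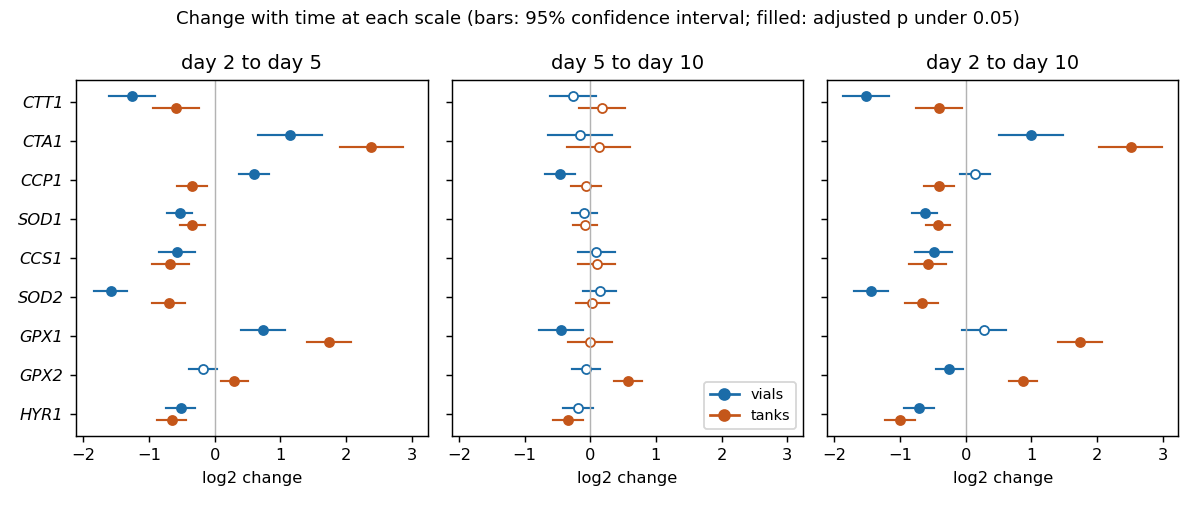
Log2 change of each gene (horizontal axis) from day 2 to day 5, from day 5 to day 10 and from day 2 to day 10, with vials in blue, tanks in orange, bars for the 95% confidence interval and filled points for adjusted p under 0.05. The changes from day 2 to day 5 run from -1.59 for SOD2 in vials to 2.39 for CTA1 in tanks, and those from day 5 to day 10 from -0.46 for CCP1 in vials to 0.58 for GPX2 in tanks.

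The change from day 2 to day 5 itself differed between the scales for 6 of the 9 genes. It was more positive in tanks for CTT1, CTA1, SOD2, GPX1 and GPX2 (background 32.9%) and more negative for CCP1 (background 25.9%). The CTT1 value of 0.67 (adjusted p = 0.0211) lost its call without day 2 tank replicate 3 (0.59, adjusted p = 0.0559), day 5 tank replicate 2 (0.55, adjusted p = 0.0612) or day 5 vial replicate 1 (0.53, adjusted p = 0.063). In the late step only GPX2 differed (background 2.62% more positive and 2.29% more negative). That background came to 268 of all genes, and to 706 without day 10 tank replicate 2. GPX1 had 0.45 in that step (adjusted p = 0.274) and was called without day 5 vial replicate 1 (0.67, adjusted p = 0.0479) and with array weights (0.61, adjusted p = 0.0174). Over the whole course the same 6 genes were called, 5 more positive (background 33.7%) and CCP1 more negative (background 26.5%). These comparisons share all their arrays with those given above, so they are not separate evidence.

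Ratios within an array show how related genes moved apart, here set to 0 at the mean of the day 2 vials. The log2 ratio of CTT1 to CTA1 was 0.41 ± 0.21 (SD, n = 3) in day 2 tanks. On day 5 it was -2.40 ± 0.33 in vials and -2.56 ± 0.13 in tanks, and on day 10 it was -2.51 ± 0.13 and -2.51 ± 0.30. The balance between the cytosolic and the peroxisomal catalase transcript therefore shifted by over 2 log2 units at each scale, and the scales overlapped on days 5 and 10.

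The ratio of SOD1 to SOD2 went to 1.05 ± 0.05 (SD, n = 3) in day 5 vials, 0.83 ± 0.17 in day 5 tanks, 0.82 ± 0.10 in day 10 vials and 0.72 ± 0.14 in day 10 tanks, with 0.47 ± 0.19 in day 2 tanks. Each of these lay above the day 2 vials. The ratio of SOD1 to its chaperone CCS1 stayed between -0.14 and 0.27 in all group means. The HYR1 to GPX1 ratio was 1.37 ± 0.06 in day 2 tanks and between -1.37 and -0.99 in the 4 later groups, so at each scale it was lower after day 2. GPX2 to GPX1 ran from 0.28 ± 0.03 in day 2 tanks to -1.17 ± 0.21 in day 5 tanks. These ratios are descriptions, with no test.

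**Figure D4:**
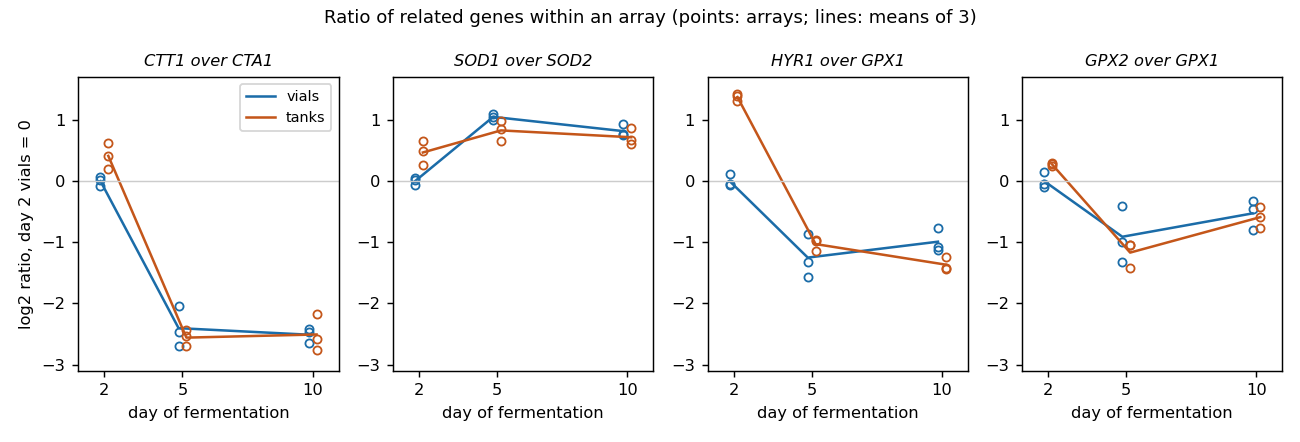
Log2 ratio of 2 related genes on the same array (vertical axis, mean of day 2 vials set to 0) by day (horizontal axis), with circles for arrays and lines through the means of 3, vials in blue and tanks in orange. CTT1 over CTA1 lies between -2.76 and -2.05 on every array of days 5 and 10, and HYR1 over GPX1 starts at 1.31 to 1.42 in day 2 tanks.

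Among the 9 genes, CTT1, SOD1 and SOD2 ran most alike over the 18 arrays (r from 0.92 to 0.94), and CTA1 ran with GPX1 (r = 0.94). The most negative values were -0.80 for CCS1 with GPX1 and -0.74 and -0.73 for CTA1 with CCS1 and HYR1. With 6 groups behind the 18 arrays these values mostly restate the group means. Among all named genes above background, the 3 with the pattern most like CTT1 were MCR1, STE50 and SOD2 itself (r = 0.95, 0.94 and 0.94). For SOD2 they were TCM62, MVD1 and FMP46 (r = 0.98, 0.97 and 0.97), for SOD1 HRT3, DPL1 and CCZ1 (r = 0.96 each), and for CCS1 RIC1, EMC4 and KAR4 (r = 0.94, 0.94 and 0.93). CTA1 ran with IZH3, RFX1 and DOT6 (r = 0.95 each), CCP1 with RNR1, BGL2 and NTH2 (r = 0.97, 0.97 and 0.96), and GPX1 with PDE1, SDS3 and RAD5 (r = 0.97, 0.97 and 0.96). GPX2 ran with HPM1, SPP381 and NSR1 (r = 0.93, 0.92 and 0.91) and HYR1 with MMF1, RGD1 and AGC1 (r = 0.98 each).

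Regulators of these genes also differed in transcript level. YAP1, which drives GPX2 and is activated through Hyr1, had mean log2 signals of 10.56, 10.53 and 10.48 in vials on days 2, 5 and 10. In tanks it had 10.32, 11.48 and 11.67, so it was higher there by 0.95 on day 5 and 1.19 on day 10 and lower by 0.24 on day 2, all called. SKN7, a partner of Yap1 in the peroxide response, was higher in tanks by 0.48, 0.65 and 0.88. MSN4 was higher by 0.30, 1.02 and 1.11, while MSN2 was lower by 0.94 on day 2 and was not called on day 5 (0.06) or day 10 (-0.08). ADR1, the activator of CTA1, rose by 4.09 in vials and by 1.67 in tanks over the whole course, where CTA1 rose by 0.99 and 2.51. HAP4, the activating subunit of the heme-dependent Hap complex, was lower in day 2 tanks by 1.96 and was not called on days 5 and 10 (0.02 and -0.11). Of 29 regulators measured, 8 were higher and 14 lower in tanks on day 2, 13 and 7 on day 5, and 12 and 7 on day 10, against 38.2% and 39.1%, 33.1% and 28.8%, and 32.3% and 26.4% of all genes. From day 2 to day 5 in tanks 22 rose and 4 fell (34.2% and 39.1% of all genes), with a median of 0.84 against -0.05 over all genes. In vials 14 rose and 7 fell (26.5% and 41.1% of all genes), with a median of 0.17 against -0.16.

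The list counts that follow are between tanks and vials, and are to be read against the shares of all genes called higher (38.2%, 33.1% and 32.3% on days 2, 5 and 10) and lower (39.1%, 28.8% and 26.4%). Of 8 heme synthesis genes 6 were higher in tanks on each of the 3 days and none lower, with medians of 0.67, 0.58 and 0.54 against -0.01, 0.02 and 0.03 over all genes. HEM15, the ferrochelatase, was higher by 1.58, 1.64 and 1.55, and HEM12 by 1.59 on day 2. Copper and manganese genes were divided, with 5 higher and 8 lower of 16 on day 2, 5 and 5 on day 5, and 3 and 4 on day 10. CTR3, a copper transporter, had mean log2 signals of 11.53, 8.70 and 8.90 in vials and 9.56, 10.23 and 10.70 in tanks on the 3 days, so its tank mean was below that of vials on day 2 and above it on days 5 and 10. The copper metallothionein CUP1-1 was lower in tanks, at -2.96, -2.27 and -1.71 on the 3 days, but near-identical copies share its sequence and the single copy is uncertain. Peroxisomal import genes, on which CTA1 depends for its place, were divided as well, 4 above and 5 below vials of 10 on day 2, 5 and 1 on day 5, and 2 and 1 on day 10. On day 2 PEX2 had 1.54 and PEX19 -2.84.

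The same shares of all genes apply to the other peroxide defences. Of 11 peroxiredoxin, thioredoxin and sulfiredoxin genes, 5 were higher in tanks on day 2 and none lower, 8 and 1 on day 5, and 9 and none on day 10, with medians of 0.26, 0.38 and 0.44. The day 2 count lies near the share of all genes called higher. SRX1, which repairs oxidised peroxiredoxin, was at 2.19 on day 10 and the nuclear peroxiredoxin DOT5 at 1.69. Glutathione and glutaredoxin genes were split, with 8 higher and 5 lower of 16 on day 2, 4 and 6 on day 5, and 4 and 4 on day 10, and medians of 0.28, -0.08 and -0.04. GSH1, the first enzyme of glutathione synthesis, was higher by 1.10 and 1.14 on days 5 and 10, and the transferase GTT1 by 1.38 and 1.21. Of 17 NADPH genes, 11, 9 and 9 were above vials on the 3 days and 3, 4 and 2 below, with ZWF1, the first step of the pentose phosphate pathway, at 1.23 on day 5 and 1.33 on day 10. The NADPH medians were 0.54, 0.35 and 0.38. Of 22 general stress genes listed under Msn2 and Msn4, 10 were higher and 6 lower in tanks on day 2, 6 and 7 on day 5, and 7 and 6 on day 10. On day 2 DDR2 and HSP12 were lower in tanks at -1.37 and -1.19, while GRE3 and GSY2 were higher at 1.17 and 0.97. The medians of the list were 0.11, -0.07 and 0.02.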

How the data were processed

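Labelled RNA was hybridised to an Affymetrix array with probe sets for S. cerevisiae and S. pombe. Per the submitters' processing notes, the authors used Affymetrix Expression Console and RMA (no version stated). The deposited values were intensities on a linear scale, from 4.79 to 39396. The plan assumed log2 values, so log2 was taken here. Left out of 10928 probe sets were 213 controls, 1 with several genes, 1746 whose genes are not in the S. cerevisiae reference (taken as S. pombe) and 3470 with no gene listed. The other 5498 covered 5449 genes, of which 47 had several probe sets and kept the one with the highest mean. Background was the 95th percentile of S. pombe values. No build is named for the array, so coordinates are not given, and sequences were not used here.

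Group means of 6 groups over 18 arrays were fitted with limma 3.58.1 (R 4.3.3), leaving 12 residual degrees of freedom, and each of 12 comparisons was adjusted by Benjamini-Hochberg over all genes. The p-values measure the spread between replicates labelled as biological, and 3 per group limit the precision. The 9 genes and 9 pathway lists were chosen with earlier results of these data known. The text names every one of the 9 genes, up to 2 called genes with the largest rise and 2 with the largest fall per list and comparison, and any regulator. CUP2 and MAC1 stand in 2 lists, and a few listed genes are not reported here. Likeness was Pearson's r among genes with a standard symbol above background in all group means.

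The choices varied were the normalization (quantile again, or median centring), dim genes, the probe set kept, the probe sets tested together, the variance prior, array weights, the groups fitted together, a 2-fold limit, a block on replicate number (fixed, or random inside each scale) and each array in turn. A lowess trend on coding length (span 0.3) was also subtracted, a choice made once the data had been seen. The fit was also run on simulated data, with no outcome given here. Plots used matplotlib 3.10.9 and pandas 2.3.3 under Python 3.11.15.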

Additional observations from a re-analysis of the deposited data

Results flagged for a closer look

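In 13 of 27 tests of whether a change with time differed between the scales, a gene of the 9 was called. That count is to be read against the shares of all genes called more positive and more negative in tanks. These were 32.9% and 25.9% from day 2 to day 5, 2.62% and 2.29% from day 5 to day 10, and 33.7% and 26.5% from day 2 to day 10. The values of the 9 genes below are tank change minus vial change on the log2 scale, from limma with adjustment over all genes. From day 2 to day 5 they were 0.67 for CTT1 (adjusted p = 0.0211), 1.24 for CTA1 (adjusted p = 0.00392), 0.88 for SOD2 (adjusted p = 0.000367), -0.95 for CCP1 (adjusted p = 7.09e-05), 1.02 for GPX1 (adjusted p = 0.00116) and 0.48 for GPX2 (adjusted p = 0.00825). The GPX2 value was 0.27 (adjusted p = 0.103) under a repeated quantile normalization and 0.26 (adjusted p = 0.103) with the length trend removed. From day 5 to day 10 GPX2 had 0.64 (adjusted p = 0.0137).

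From day 2 to day 10 the values were 1.11 for CTT1 (adjusted p = 0.000689), 1.52 for CTA1 (adjusted p = 0.000772), 0.77 for SOD2 (adjusted p = 0.00103), -0.56 for CCP1 (adjusted p = 0.00495), 1.46 for GPX1 (adjusted p = 4.13e-05) and 1.12 for GPX2 (adjusted p = 5.5e-06). Of these 6 genes, 5 were lower and CCP1 was higher in tanks on day 2, and that scale difference enters each value. The part of array quality, coding length and growth phase in these differences was not tested here beyond the alternatives given.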

How the results depend on the processing

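Of 108 results of the 9 genes 66 were called, to be read against the shares of all genes given above for each comparison. Of these 66 calls, 51 kept direction and call under every alternative run apart from the 2-fold limit. With that limit the counts called were 2, 0 and 0 for tanks against vials on days 2, 5 and 10, 3, 0 and 2 for vials (day 5 against 2, 10 against 5, 10 against 2), 2, 0 and 2 for tanks, and 2 and 0 for tank minus vial change from day 2 to 5 and from day 5 to 10. For tank minus vial change from day 2 to day 10, CTT1, CTA1, GPX1 and GPX2 passed the limit. Over all 5449 genes the limit left 1742, 755 and 663 called between the scales on days 2, 5 and 10. In the same order of comparisons it left 1135, 144 and 1489 in vials and 1531, 206 and 2011 in tanks. Tank minus vial change kept 1177 (day 2 to 5), 75 (day 5 to 10) and 1335 (day 2 to 10). Removing the length trend left 5 genes called between the scales on day 2 and 1 in vials from day 5 to day 10. It moved the day 2 scale difference of SOD1 to 0.195 and of GPX2 to 0.0946, both against the reported sign and not called. Repeating the quantile normalization moved the whole-course change of GPX2 in vials to 0.0386 (adjusted p = 0.732), and it shifted the median of all genes by 0.13 in the day 2 scale comparison. Late in the course, between days 5 and 10, vials had 1 gene called under that normalization, under centring and when only those groups were fitted, and 5 with array weights. Tanks had 5 with array weights and 1 when only those groups were fitted, and tank minus vial change had 2 with array weights. The cause of these shifts was not tested. Leaving out 1 array at a time gave 1 to 2 genes called from day 5 to day 10 in vials, in tanks and in tank minus vial change. Pairing by replicate number was not seen throughout. Of 45 same-numbered pairs 15 correlated above 0.1, and 3 of 18 arrays correlated best with their own number. Between day 5 and day 10 tanks the correlations were -0.47, 0.38 and 0.76 for replicates 1, 2 and 3. Deviations from means of 3 were used, which sum to 0 in each group, so this check cannot tell whether vessels were shared between days. With the replicate number as a block 6 genes were called on day 10 between the scales against 5, CTT1 being added, and the random block changed no count of the 9. Over all genes, array weights called 3019 against 1674 in vials and 3257 against 2123 in tanks from day 5 to day 10, and 1690 against 268 in tank minus vial change, where leaving out day 10 tank replicate 2 gave 706 and day 10 vial replicate 2 gave 176. The 2-fold limit left between 75 genes (of 268) and 2011 (of 4294) in a comparison. Fitting only the groups compared gave 1156 in tanks and 146 in tank minus vial change for that step.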
